A study of Mus musculus with 6 samples.

Results

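Collagen and Adamts genes, 54 of the 16330 promoters measured, were followed for occupancy by Rybp in mouse embryonic stem (ES) cells. Members were taken by gene symbol from the arrays' annotation, as Col with a number, the letter a and a number (36 collagen chains), or any symbol starting with Adamts (18 genes). Collagens are the triple-helical proteins of the extracellular matrix, and each gene encodes 1 chain. Adamts genes encode secreted metalloproteases with thrombospondin repeats that trim procollagens or cut proteoglycans of the same matrix, and the related Adamts-like proteins lack the protease domain. Most of these genes are known for their work in connective tissue, cartilage, vessels and basement membranes, and not in undifferentiated ES cells. The genes were picked with their log ratios on these arrays already known, so all values below are descriptions.

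Rybp belongs to variant forms of Polycomb repressive complex 1, which ubiquitylate histone H2A and occupy many CpG-rich promoters. Chromatin immunoprecipitation on promoter arrays (ChIP-chip) compared ES cells labelled WT with ES cells labelled Eed-KO and Dnmt1-KO, both described as constitutive knockouts. Polycomb repressive complex 2 needs Eed to methylate histone H3, and Dnmt1 copies DNA methylation to the new strand at replication. All cells grew in serum with ESGRO, a leukaemia inhibitory factor supplement, on irradiated embryonic fibroblasts or on gelatin, and the labels do not say which culture had fibroblasts, nor whether a genotype is 1 clone. DNA immunoprecipitated (IP) with an anti-Rybp antibody was labelled with Cy5 and input DNA with Cy3. The promoter set is split over 2 array designs, so a genotype was read on 2 arrays but any 1 promoter only once per genotype. Without replicates no p-value was computed, and precision is limited by this number of arrays.

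The level of a promoter is the mean of log2 IP over input, centred on the array's median, over the 6 neighbouring probes with the highest mean across the 3 genotypes, within 3 kb. All 54 members had such a window. The SD given with a level is the spread over those 6 probes, and the standard error (SE) of a difference is over the 6 probe differences. Both cover probe scatter and not variation between cultures or hybridisations. Promoters with a level of 1 or more (2-fold enrichment) are called bound. Probe log ratios spread with an SD of 0.41 to 0.47 on the WT and Eed-KO arrays, and of 0.96 and 0.91 on the Dnmt1-KO arrays. The Dnmt1-KO arrays were read on another scanner model with another software version, so genotype and scan cannot be told apart there. For this reason Dnmt1-KO values are also given after the arrays of a design were set to the WT array's median absolute deviation, here called 1 spread. The arrays measure promoter DNA and not transcripts, so markers of cell type could not be checked.

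Probes that carry the pattern are shown first, each the upstream probe with the highest WT value in its window, among those not reaching past a RefSeq start. They are written 5′ to 3′ as printed on the array, with CpG dinucleotides in capitals. The first 6 come from members that are bound in WT or stand high in a knockout.
Col12a1: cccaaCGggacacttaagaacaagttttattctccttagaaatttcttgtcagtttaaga
Col27a1: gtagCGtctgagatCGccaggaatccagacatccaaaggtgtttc
Col4a5: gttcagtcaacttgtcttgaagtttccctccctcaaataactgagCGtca
Adamts17: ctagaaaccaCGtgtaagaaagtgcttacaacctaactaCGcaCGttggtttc
Col1a2: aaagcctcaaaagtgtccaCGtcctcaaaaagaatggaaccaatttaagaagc
Col25a1: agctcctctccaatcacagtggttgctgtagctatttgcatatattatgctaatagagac
The Col27a1 probe, 749 bp upstream of the annotated start, gave 2.08 in WT, 2.27 in Eed-KO and 2.49 in Dnmt1-KO. The Col12a1 probe, at 738 bp upstream, gave 1.62, 1.75 and 2.46 in the same order. The Col1a2 probe, 200 bp upstream, gave 1.1, 0.69 and 3.93, so that Dnmt1-KO stood apart from the other 2 genotypes. The Col25a1 probe holds no CpG and gave 1.1, 0.87 and 2.93. The Adamts17 probe, with 3 CpGs, holds the E-box letters CACGTG, and gave 1.21, 0.34 and 2.79. The Col4a5 probe, 130 bp upstream between Col4a5 and its divergent neighbour Col4a6, gave 1.83, 1.43 and 1.61, with the highest value in WT.

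For contrast, 3 probes follow from members with low WT windows.
Col3a1: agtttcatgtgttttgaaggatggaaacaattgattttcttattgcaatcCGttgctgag
Col11a2: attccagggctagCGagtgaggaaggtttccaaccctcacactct
Adamtsl2: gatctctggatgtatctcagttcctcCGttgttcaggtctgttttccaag
The Col11a2 probe gave 0.01 in WT, -0.30 in Eed-KO and -0.40 in Dnmt1-KO. The Col3a1 probe, 2528 bp upstream, gave 0.28, 0.69 and 1.95. Values at 1 probe are more scattered than a window mean, and the windows are used from here on.

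In WT cells 10 of the 54 members were bound, 6 of 36 collagens (16.7%) and 4 of 18 Adamts genes (22.2%), against 5.15% of all promoters. The members offered more probes from which to choose the highest window. Collagens had a median of 34 probes per gene and Adamts genes 36.5, against 28 over all promoters, and the part of this in the shares was not tested. The median WT level was 0.57 for the collagens and 0.65 for the Adamts genes, against 0.27 for all promoters. Of the 54 members, 41 lay above the median of all promoters. The bound collagens were Col12a1, Col27a1, Col2a1, Col4a5, Col14a1 and Col17a1, and the bound Adamts genes were Adamts17, Adamts1, Adamts15 and Adamts2. Of the 6 bound collagens 5 were read on the second array design, which holds 16 of the 36. None reached a 3-fold enrichment in WT, while the highest promoter of the whole set stood at 2.63. Col19a1, at 0.96, was the nearest below the bound level, and Adamts2, at 1.02, the nearest above it. Windows were centred a median of 444 bp from the annotated start, and in 4 members (Col17a1, Adamts4, Adamts13 and Adamtsl5) more than 2 kb away. With only probes within 2 kb of the start, 5 collagens and 4 Adamts genes were bound in WT, as were 775 of 15878 promoters.

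**Figure D1:**
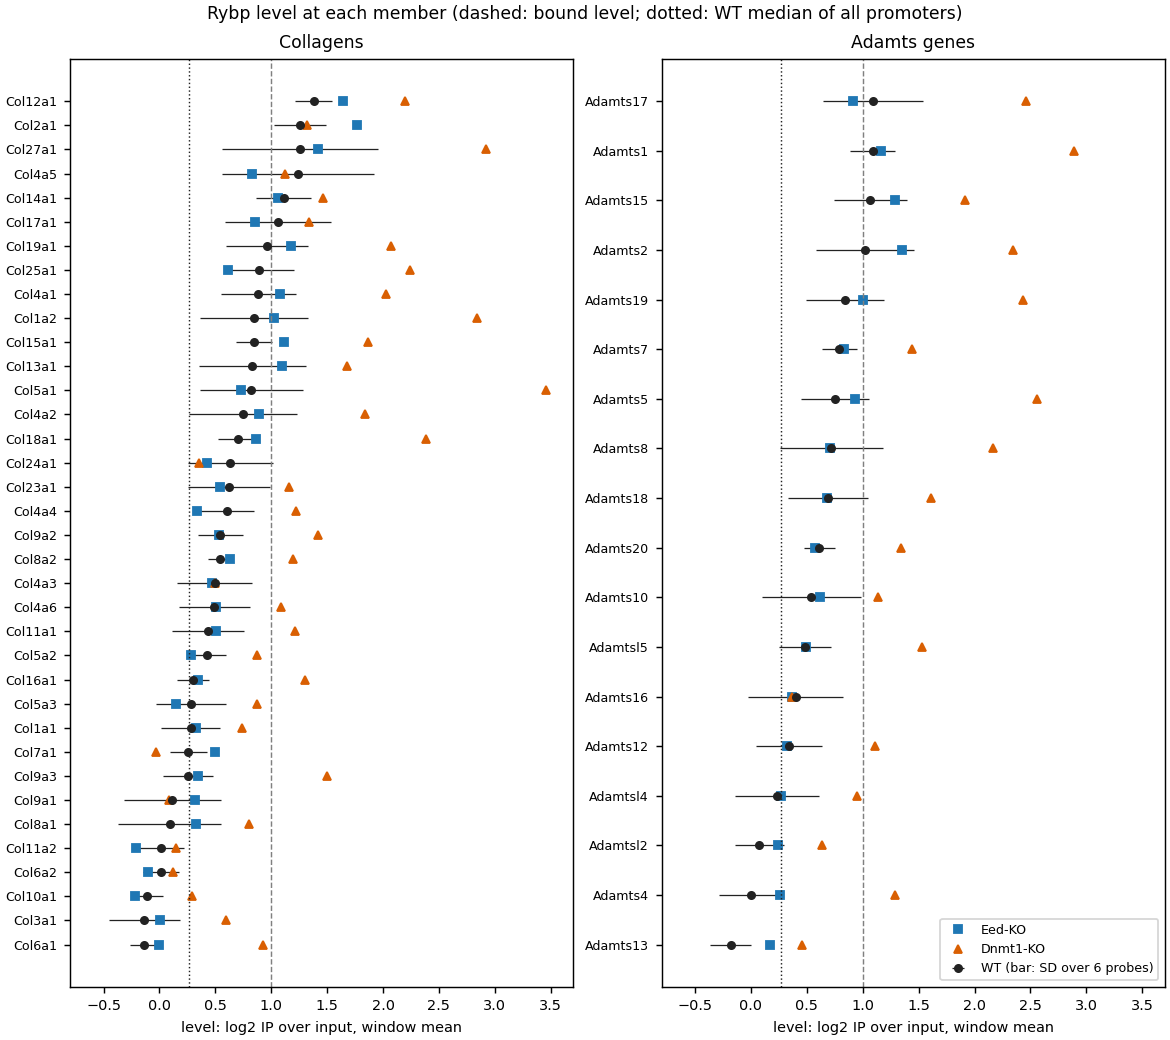
Level of each member (log2 IP over input, mean of 6 probes) in WT (circles, bar: SD over probes), Eed-KO (squares) and Dnmt1-KO (triangles), ordered by WT level. WT and Eed-KO points lie close together along both families, while Dnmt1-KO points stand to the right in 49 of 54 members, with Col5a1 farthest at 3.46.

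Among the 11 fibrillar collagens, whose chains build the striated fibrils, 2 were bound in WT, where 5.15% of all promoters were. The class median was 0.43. Col2a1, the main collagen of cartilage, stood at 1.26 ± 0.24 (SD over 6 probes) in WT, 1.77 ± 0.46 in Eed-KO and 1.32 ± 0.21 in Dnmt1-KO. Its window on chromosome 15 (97830659 to 97831723, build not given in the sources used here) lies inside the gene, from 979 to 1998 bp past the start. Col27a1, a fibrillar collagen of cartilage, stood at 1.26 ± 0.70, 1.41 ± 0.69 and 2.92 ± 0.69 in the same order, with all 6 probes upstream of the start.

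The chains of type I collagen, the main collagen of bone, skin and tendon, are encoded on separate chromosomes. Col1a2 stood at 0.85 ± 0.48 in WT, 1.03 ± 0.51 in Eed-KO and 2.84 ± 0.83 in Dnmt1-KO. Col1a1 stood at 0.28 ± 0.27, 0.33 ± 0.35 and 0.74 ± 0.53, near the median of all promoters in WT. Col3a1, the fibrillar collagen of vessels and skin, was among the lowest members at -0.14 ± 0.32, 0.00 ± 0.47 and 0.59 ± 0.90, with its window centred 1896 bp upstream. Nearer the Col3a1 start, a probe at -285 bp gave -0.35, -0.20 and -1.10, and 1 at -134 bp gave -0.13, 0.01 and -0.76. The Col3a1 window thus does not describe the start itself. Col5a1, a minor chain that sets fibril diameter, stood at 0.82 ± 0.46, 0.73 ± 0.64 and 3.46 ± 1.36. Its partner chain Col5a2 stood at 0.42, 0.28 and 0.88. The cartilage chains Col11a1 (0.43, 0.51 and 1.21) and Col11a2 (0.02, -0.21 and 0.15) were unbound in WT and Eed-KO. Col24a1, a fibrillar collagen of bone, stood at 0.63, 0.43 and 0.36, lowest in Dnmt1-KO. In WT Col1a2 stood above Col1a1 by more than the probe SD of either, and Col5a1 above Col5a2 by less than its own probe SD. Col1a2 and Col1a1 were read on different arrays, and the probe SD does not cover differences between arrays.

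The fibril-associated collagens sit on the surface of fibrils, and 2 of the 7 measured were bound in WT, where 5.15% of all promoters were. Col12a1, found in tendon and other dense tissue, had the highest WT level of all 54 members, 1.38 ± 0.17 in WT, 1.64 ± 0.20 in Eed-KO and 2.19 ± 0.38 in Dnmt1-KO. Its window on chromosome 9 (79504807 to 79505587) lies wholly upstream, from 1203 to 471 bp before the start. Col14a1, its close relative, stood at 1.11 ± 0.24, 1.06 ± 0.22 and 1.46 ± 0.21. Col19a1 stood at 0.96 ± 0.37, 1.17 ± 0.50 and 2.07 ± 0.64. The type IX chains of cartilage were lower in WT, with Col9a2 at 0.55, Col9a3 at 0.26 and Col9a1 at 0.12. In Dnmt1-KO they spread from 0.09 (Col9a1) to 1.42 (Col9a2) and 1.50 (Col9a3).

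The type IV collagens form the sheet of basement membranes, and their 6 genes lie in head-to-head pairs that share a promoter region. Col4a1 and Col4a2, the pair found in nearly all basement membranes, stood at 0.89 and 0.75 in WT, 1.08 and 0.89 in Eed-KO, and 2.03 and 1.84 in Dnmt1-KO. Their windows lie 289 bp apart on chromosome 8, and their levels lie within 1 probe SD of each other in each genotype. Col4a5 and Col4a6 on the X chromosome, with windows 420 bp apart, were less alike, at 1.24 ± 0.68 and 0.49 ± 0.32 in WT. In Eed-KO they stood at 0.83 ± 0.62 and 0.51 ± 0.44, and in Dnmt1-KO at 1.12 ± 0.88 and 1.09 ± 0.63. Col4a4 and Col4a3, of the kidney filter, overlap by 1 probe and stood at 0.60 and 0.50 in WT, then at 1.22 and 0.50 in Dnmt1-KO. Col4a5 was the only type IV chain bound in WT, but with normexp background correction its WT level was 0.37, below the bound level. As measured 5 of the 6 were bound in Dnmt1-KO, where 46.1% of all promoters were.

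The remaining collagen classes ranged from the lowest to the upper levels of the family. Of 6 listed type VI chains of beaded filaments, 2 had a window, and both were low in WT. Col6a1 stood at -0.14 ± 0.12 in WT, 0.00 ± 0.26 in Eed-KO and 0.92 ± 0.57 in Dnmt1-KO, and Col6a2 at 0.02 ± 0.16, -0.10 ± 0.16 and 0.12 ± 0.26. Col10a1, the collagen of hypertrophic cartilage, stood at -0.11, -0.22 and 0.29. Col7a1, which forms the anchoring fibrils of skin, stood at 0.26 ± 0.16, 0.50 ± 0.13 and -0.03 ± 0.20, and was the member with the lowest Dnmt1-KO level. The transmembrane collagens were higher, with a class median of 0.86 in WT. Among them Col17a1, of the hemidesmosome, stood at 1.06 ± 0.47, 0.85 ± 0.43 and 1.33 ± 0.08, although its window is centred 4784 bp upstream of the start. A probe 2 bp past the Col17a1 start gave -0.43, -0.63 and -0.12, so the window does not describe the start itself. Col25a1, a collagen of neurons, stood at 0.89 ± 0.31, 0.61 ± 0.21 and 2.24 ± 1.38, and Col13a1, of the neuromuscular junction, at 0.83 ± 0.48, 1.1 ± 0.69 and 1.68 ± 0.65. The multiplexins Col15a1 and Col18a1, proteoglycans next to basement membranes, stood at 0.84 and 0.70 in WT and at 1.87 and 2.39 in Dnmt1-KO. Type VI collagens, network-forming and anchoring collagens and multiplexins had no bound member in WT. These classes held 2, 4 and 2 measured promoters, too few to set against the 5.15% of all promoters that were bound. No class of either family held more than 11, so the counts of the other classes are descriptions too.

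Among the Adamts genes, Adamts2, which removes the amino-terminal propeptide of fibrillar procollagens, was bound in all 3 genotypes, at 1.02 ± 0.44 in WT, 1.35 ± 0.62 in Eed-KO and 2.35 ± 0.76 in Dnmt1-KO. The other propeptidases, Adamts3 and Adamts14, were not analysed here. The 6 measured genes for proteases that cut aggrecan and versican had a WT median of 0.73. Of these 2 were bound in WT, where 5.15% of all promoters were. Adamts1 stood at 1.09 ± 0.20, 1.17 ± 0.35 and 2.89 ± 0.52, and Adamts15 at 1.07 ± 0.33, 1.29 ± 0.49 and 1.91 ± 0.55. Their neighbours were lower in WT: Adamts5, a main aggrecanase of cartilage, whose window lies 96959 bp from that of Adamts1, stood at 0.75 ± 0.30, 0.93 ± 0.41 and 2.56 ± 1.05. Adamts8, 20226 bp from Adamts15, stood at 0.72 ± 0.46, 0.71 ± 0.47 and 2.16 ± 0.89. Adamts4, the other well-known aggrecanase, stood at 0.00 ± 0.29, 0.26 ± 0.31 and 1.29 ± 1.09, in a window centred 2778 bp upstream. In WT Adamts5 lay at percentile 87.5 of all promoters and Adamts4 at percentile 19.9, and their levels differed by more than the probe SD of either. These genes were read on different arrays, a difference that the probe SD does not cover.

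Adamts17, a protease linked to fibrillin microfibrils, had the highest WT level of its family, with 1.09 ± 0.45 in WT, 0.91 ± 0.49 in Eed-KO and 2.46 ± 0.73 in Dnmt1-KO. Adamts19, its closest relative, stood at 0.84 ± 0.35, 1.00 ± 0.55 and 2.43 ± 0.58. The paired genes Adamts16 and Adamts18 stood at 0.40 and 0.69 in WT, and then at 0.37 and 1.61 in Dnmt1-KO. Adamts13, the plasma protease that cleaves von Willebrand factor, was the lowest member in WT, at -0.18 ± 0.18, 0.17 ± 0.10 and 0.46 ± 0.20. Its window is centred 31824 bp past the annotated start and does not describe the start itself. The Adamts-like genes Adamtsl2, Adamtsl4 and Adamtsl5 stood at 0.07, 0.23 and 0.48 in WT, below the medians of the proteoglycan-cleaving (0.73) and the other proteases (0.69). The Adamtsl5 window lies 7948 to 7020 bp upstream of the start and that of Adamtsl2 1701 to 455 bp upstream. Probes nearer the start gave 0.41 in WT for Adamtsl5 (at -230 bp) and 0.27 for Adamtsl2 (at -41 bp). Adamtsl2 shares its window with the gene 1110002H13Rik.

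Eed-KO cells, which lack a core part of Polycomb repressive complex 2, were set against WT to see whether Rybp occupancy needs that complex. At the collagen and Adamts promoters the levels were close: the median difference was 0.06 in each family, against -0.04 over all promoters. With the arrays set to 1 spread it was 0.04 for the collagens and -0.01 for the Adamts genes, against -0.06. As measured Eed-KO was above WT in 21 of 36 collagens and 12 of 18 Adamts genes, where 40.7% of all promoters were. In Eed-KO 9 collagens and 4 Adamts genes were bound, against 5.76% of all promoters, and 7 of the 10 members bound in WT were among them, as were 76.7% of the 841 promoters bound in WT. Among the 16 members bound in WT or Eed-KO, 1 (Col2a1) was higher by at least 0.5, where 4.4% of the 1136 promoters so tested were. None was lower by as much, where 2.02% were, and a promoter bound in Eed-KO alone could not be lower.

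Col2a1 had the largest positive difference, 0.51 ± 0.11 (SE over 6 probes), with all 6 probes higher in Eed-KO. Its probes read 1.25, 1.61, 1.03, 0.99, 1.42 and 1.24 in WT from 979 to 1998 bp past the start. In Eed-KO the same probes read 1.82, 2.33, 1.13, 1.55, 2.25 and 1.54, so the ranges overlapped while each probe was higher. With the arrays set to 1 spread the Col2a1 difference was 0.34, below the size rule. With that scaling 6 collagens and 3 Adamts genes were bound in Eed-KO, against 4.34% of all promoters. No member then differed by 0.5 or more, where of the 993 promoters that this scaling left bound in either genotype 1.11% were higher and 3.83% lower by as much. The next highest differences among members bound in WT or Eed-KO were those of Adamts2 (0.33 ± 0.15), Col15a1 (0.27 ± 0.07), Col13a1 (0.26 ± 0.12), Col12a1 (0.26 ± 0.07, all 6 probes) and Adamts15 (0.23 ± 0.13).

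Col4a5 had the largest negative difference, -0.41 ± 0.14, with all 6 probes lower in Eed-KO. With normexp background correction it was -0.14, and that of Col17a1, at -0.30, was lower. The Col4a5 probes read 0.96, 1.83, 1.53, 2.09, 0.57 and 0.45 in WT, and 0.82, 1.43, 1.26, 1.16, 0.53 and -0.25 in Eed-KO, from 328 bp before to 504 bp past the start. The neighbouring Col4a6 window differed by 0.02 ± 0.18, or by -0.15 with normexp, close to the Col4a5 value with that correction. Col17a1 (-0.21 ± 0.07), Adamts17 (-0.18 ± 0.14) and Col14a1 (-0.05 ± 0.06) were the other bound members with lower Eed-KO means. Col25a1 (-0.28 ± 0.08) and Col6a2 (-0.12 ± 0.07), both unbound in WT and Eed-KO, had all 6 probes lower, and Col7a1 (0.24 ± 0.04), also unbound, had all 6 higher. Of the 54 members 3 had all 6 probes lower and 3 all 6 higher, where 1314 and 619 of 16330 promoters did. The input signal of the member genes, as gene medians, differed between Eed-KO and WT by -0.23 to 0.16 on the log2 scale.

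**Figure D2:**
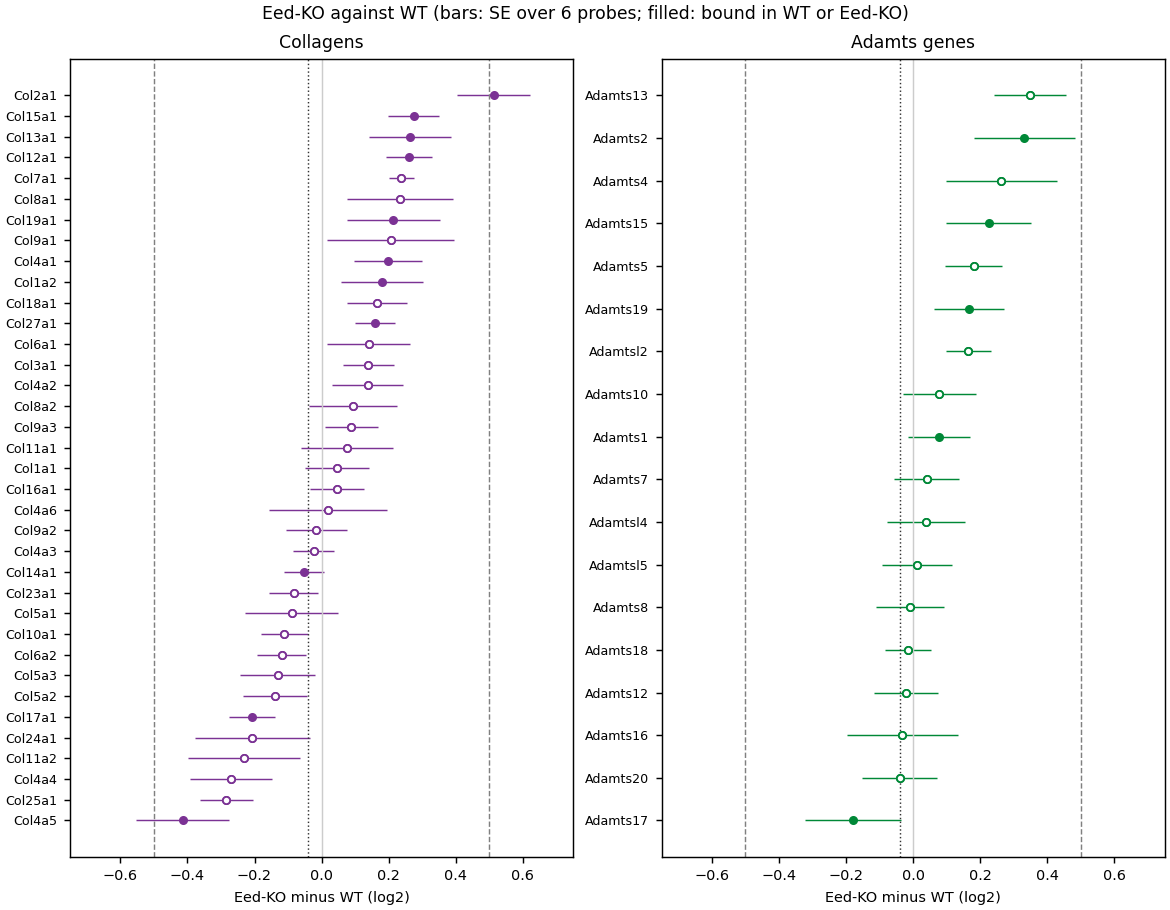
Eed-KO minus WT (log2) at each member with its SE over 6 probes, filled for members bound in WT or Eed-KO, with dashed lines at the size rule of 0.5 and a dotted line at the median of all promoters. Col2a1 at 0.51 is the only point past a dashed line, and Col4a5 at -0.41 is the lowest.

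Dnmt1-KO cells, which lack the maintenance DNA methyltransferase, were set against WT for the same question about DNA methylation. As measured, levels were higher in Dnmt1-KO at 32 of 36 collagens and 17 of 18 Adamts genes, where 83.9% of all promoters were. The median difference was 0.68 for the collagens and 0.88 for the Adamts genes, against 0.61 for all promoters. In Dnmt1-KO 23 collagens (63.9%) and 14 Adamts genes (77.8%) were bound, against 46.1% of all promoters. Of those bound in WT or Dnmt1-KO, 10 of 23 collagens and 8 of 14 Adamts genes were higher by at least 1, where 53.9% of all such promoters were. None was lower by as much, where 0.0398% were. All 37 were bound in Dnmt1-KO and 10 of them in WT, so most entered this count through Dnmt1-KO. A promoter bound in Dnmt1-KO alone could not be lower, and Dnmt1-KO also entered the choice of windows. The shares past the size rule, 43.5% of collagens and 57.1% of Adamts genes, were thus near that of all promoters.

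With the arrays set to 1 spread over the same windows, the direction was no longer shared. Dnmt1-KO was then above WT at 19 of 36 collagens and 13 of 18 Adamts genes, where 65.4% of all promoters were, with medians of 0.01 and 0.17 against 0.10. Bound members in Dnmt1-KO then numbered 5 collagens and 5 Adamts genes, against 5.76% of all promoters. No member was then higher or lower by at least 1, where 0.432% and 0.647% of the 1390 promoters that this scaling left bound in either genotype were. Of the 10 members bound in WT, 3 stood above WT in Dnmt1-KO after this scaling, where 20.7% of the 841 promoters bound in WT did. Windows chosen on WT and Eed-KO alone, without scaling, gave median differences of 0.46 and 0.52, against 0.33 over all promoters, smaller than with windows chosen on all 3 genotypes.

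Rank does not change when all levels of a genotype are scaled together, and is given as the percentile among the promoters of both designs. It was higher in Dnmt1-KO than in WT for 22 of 54 members, 11 collagens and 11 Adamts genes, where it was for 48.9% of all promoters. Col5a1 had the largest measured difference, 2.63 ± 0.57, and moved from percentile 90.1 to 99.7. Its probes read 0.30, 1.08, 0.23, 1.24, 1.25 and 0.83 in WT, and 4.0, 5.57, 3.20, 3.43, 3.15 and 1.39 in Dnmt1-KO, from 247 bp before to 759 bp past the start. Every Dnmt1-KO probe of Col5a1 was above every WT probe. After scaling its difference was 0.67, the largest of all members. Over the whole gene its input signal was 1.43 higher and its IP signal 1.31 higher in Dnmt1-KO, as medians relative to the array, and their part in the result was not tested.

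Col1a2 followed with 1.99 ± 0.42, or 0.38 after scaling. Its probes read 0.44, 1.1, 0.30, 0.58, 1.14 and 1.54 in WT, and 3.84, 3.93, 2.42, 2.20, 2.59 and 2.07 in Dnmt1-KO, with no overlap. The largest Dnmt1-KO values of Col1a2 lay upstream of the start, and the largest WT value 491 bp past it. In contrast to Col5a1, both signals of Col1a2 over the whole gene were lower in Dnmt1-KO, the input by -1.34 and the IP by -1.96. Across the members the input differed between Dnmt1-KO and WT by -2.43 (Col3a1) to 2.34 (Col11a2), a wider range than for Eed-KO, and its part in the levels was not tested.

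Promoter sequences from RefSeq were matched to the members. Of the 54 members, 39 matched an entry of 250 bases before to 50 bases after a start (assembly GRCm38.p6), and 34 of them held a probe by exact match. The 250 upstream bases of Col5a1 (chr2:27886175-27886424, plus strand), Col1a2 (chr6:4505368-4505617, plus strand) and, for a low member, Col6a2 (chr10:76623631-76623880, minus strand) follow 5′ to 3′ along the gene, with an array probe in capitals. The Col1a2 probe belongs to the analysed window, while the Col5a1 and Col6a2 probes lie upstream of theirs.
Col5a1: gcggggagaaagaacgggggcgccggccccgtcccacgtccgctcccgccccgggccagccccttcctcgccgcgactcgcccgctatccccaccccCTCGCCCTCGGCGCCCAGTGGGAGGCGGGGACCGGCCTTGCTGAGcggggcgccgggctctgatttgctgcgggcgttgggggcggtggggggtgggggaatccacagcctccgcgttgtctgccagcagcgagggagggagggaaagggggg
Col1a2: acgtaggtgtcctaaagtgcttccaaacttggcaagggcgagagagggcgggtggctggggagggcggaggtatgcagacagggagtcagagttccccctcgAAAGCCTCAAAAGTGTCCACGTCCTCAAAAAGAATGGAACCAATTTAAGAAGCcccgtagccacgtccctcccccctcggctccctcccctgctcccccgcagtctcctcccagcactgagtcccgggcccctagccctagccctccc
Col6a2: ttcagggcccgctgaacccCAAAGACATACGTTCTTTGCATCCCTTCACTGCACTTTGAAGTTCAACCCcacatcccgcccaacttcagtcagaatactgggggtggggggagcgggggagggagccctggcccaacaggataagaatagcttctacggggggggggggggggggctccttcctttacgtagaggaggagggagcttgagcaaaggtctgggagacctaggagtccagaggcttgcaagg
The Col5a1 sequence holds 28 CpGs, that of Col1a2 11 and that of Col6a2 6. The Col5a1 probe in capitals gave 0.28 in WT, 0.04 in Eed-KO and 1.55 in Dnmt1-KO, and the Col6a2 probe gave 0.15, 0.35 and -0.53. Col1a2 reached its high Dnmt1-KO level with fewer CpGs than Col5a1.

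Among the other members bound in WT or Dnmt1-KO, examples of high measured differences were Adamts5 (1.81 ± 0.39), Adamts1 (1.80 ± 0.22), Col18a1 (1.69 ± 0.32), Col27a1 (1.67 ± 0.39), Adamts19 (1.60 ± 0.27) and Adamts8 (1.44 ± 0.26), each with all 6 probes higher. After scaling over the same windows these stood at 0.42, 0.23, 0.39, 0.01, 0.28 and 0.27, so Col27a1 was level with WT. With windows chosen again after the scaling Adamts5 stood at -0.35, so its sign depended on the window, as did that of Col6a1 (-0.11 against 0.56 over the same window as measured). The 6 genes of the proteoglycan-cleaving proteases were all bound in Dnmt1-KO as measured, with a median level of 2.04, where 46.1% of all promoters were bound. For Adamts4 (1.29) this rests on a window centred 2778 bp upstream of the start. With only probes within 2 kb of the start, 12 and not 14 of the 18 Adamts genes were bound in Dnmt1-KO (7111 of 15878 promoters). With the arrays set to 1 spread over the same windows, the levels of Adamts1 (1.32) and Adamts5 (1.17) stayed above 1. Those of Adamts8 (0.99), Adamts15 (0.88), Adamts20 (0.62) and Adamts4 (0.56) did not. For 29 of the 54 members all 6 probes were higher in Dnmt1-KO as measured, where 43.4% of all promoters had this.

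At the other end, Col7a1 was lower in Dnmt1-KO at all 6 probes, by -0.29 ± 0.11, and moved from percentile 49.4 to 13.4. Col24a1 was lower by -0.28 ± 0.17 and moved from percentile 82.3 to 25.4. With runs of 4 probes the differences of Col7a1 and Col24a1 were 0.38 and 0.77, above WT. Col4a5 differed by -0.11 ± 0.24 and Col2a1 by 0.06 ± 0.12, on arrays where most promoters were higher. With normexp the Col4a5 difference was 0.68 and that of Col2a1 0.01. After scaling they stood at -0.73 and -0.65, and their percentiles went from 98.1 to 60.0 and from 98.3 to 69.0. Adamts16 differed by -0.03 ± 0.28 and moved from percentile 64.6 to 25.8. Members low in WT included some whose rank was higher in Dnmt1-KO, such as Adamts4 (from percentile 19.9 to 67.6) and Col6a1 (from percentile 6.93 to 50.2).

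**Figure D3:**
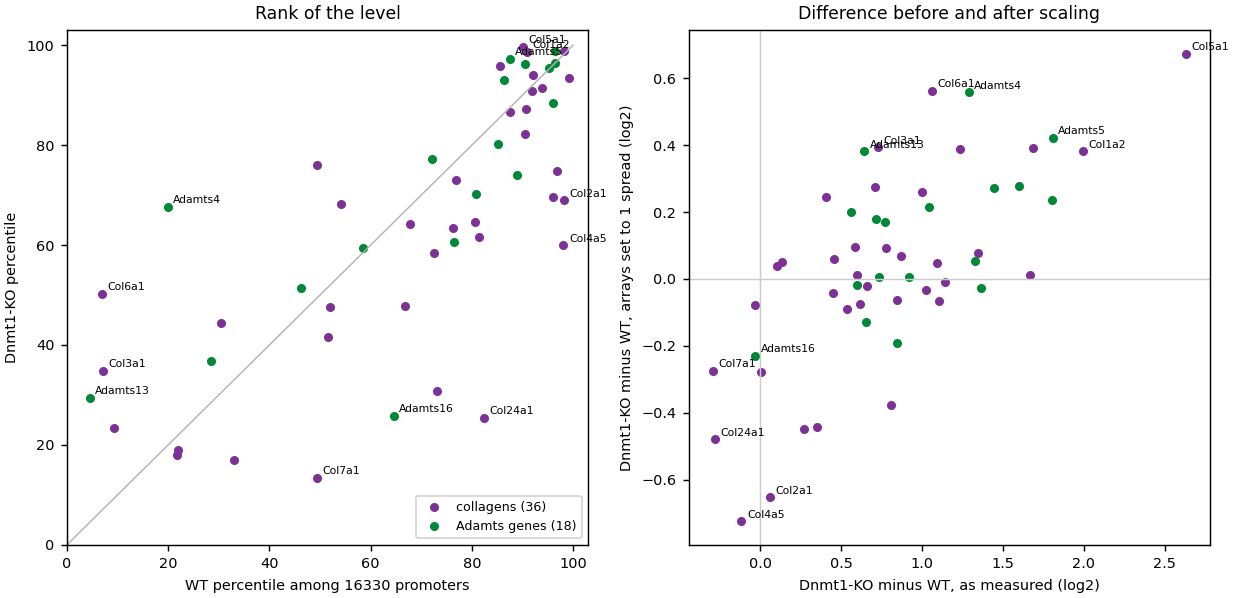
Left, percentile of each member's level among 16330 promoters in WT and Dnmt1-KO, with the line of equal rank; right, Dnmt1-KO minus WT (log2) as measured and with the arrays set to 1 spread. Col5a1 lies at the upper right of both panels, while Col2a1 and Col4a5 fall to percentiles 69.0 and 60.0 and have the lowest scaled differences.

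Averaged by distance from the annotated start, both families were above all genes in the first 500 bp past the start. There the mean in WT was 0.46 ± 0.07 (SE over 36 genes) for the collagens and 0.59 ± 0.10 (18 genes) for the Adamts genes, against 0.28 for all genes. In Eed-KO the means were 0.46 ± 0.08 and 0.66 ± 0.12, against 0.22. In Dnmt1-KO they were 1.11 ± 0.17 and 1.32 ± 0.21, against 0.85. From 2000 to 2500 bp past the start the WT means were 0.14 ± 0.06 and 0.14 ± 0.09, against -0.04 for all genes. From 500 to 1000 bp past the start in Dnmt1-KO, the Adamts genes stood at 1.27 ± 0.25 and the collagens at 0.79 ± 0.16. This profile uses no window chosen on the level.

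**Figure D4:**
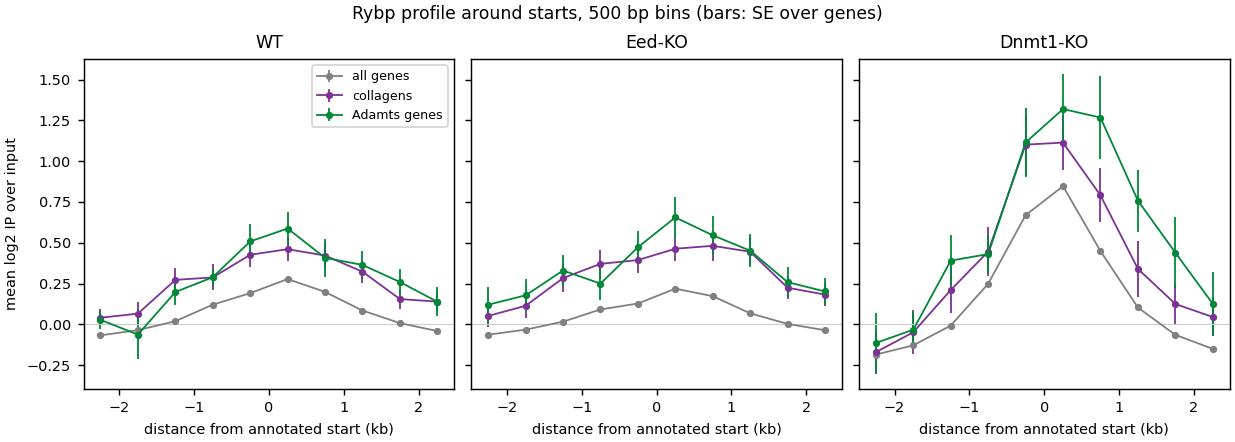
Mean log2 IP over input in 500 bp bins around the annotated start for all genes (grey), collagens (purple) and Adamts genes (green) in each genotype, with SE over genes. Both families lie above all genes in the bins next to the start, at 0.46 and 0.59 against 0.28 in WT for the first bin past it.

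CpG content went with the level among the members. Windows of the collagens held a median of 1.80 CpGs per 100 bases of probe and those of the Adamts genes 3.31, against 2.58 for all promoters. Of the 22 members at or above the median of all windows 8 were bound in WT, and of the 32 below it 2 were, Col4a5 and Col17a1. WT levels had a median of 0.81 in the first set and 0.37 in the second. Over all 841 promoters bound in WT the lower quartile of CpG content was 2.61, also above the median of all windows. Most bound promoters thus lay on the same side as most bound members. Over the 54 promoters the CpG content and the WT level had Pearson's r = 0.55 and Spearman's rho = 0.56, against 0.45 and 0.57 over all promoters. In the collagens r was 0.47 and in the Adamts genes 0.77. These points share the same arrays and probe base composition, and describe promoters rather than replicates. Col1a2 and Col25a1 reached 2.84 and 2.24 in Dnmt1-KO with 1.24 and 1.02 CpGs per 100 bases, below the median of all windows. Col23a1 and Col8a2 held 5.93 and 5.34 and stood at 0.62 and 0.54 in WT.

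**Figure D5:**
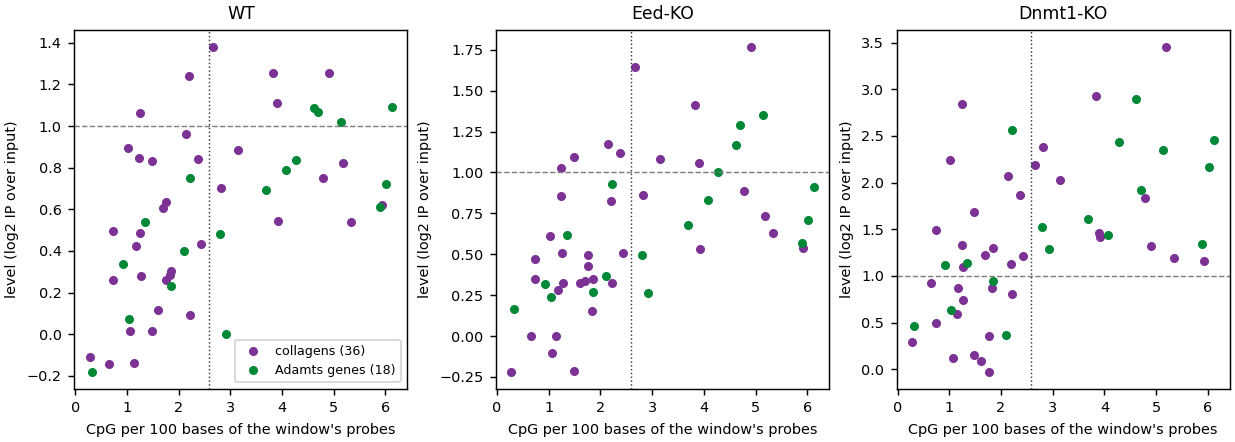
Level (log2 IP over input) against CpG per 100 bases of the window's probes for collagens (purple) and Adamts genes (green) in each genotype, with a dashed line at the bound level and a dotted line at the median CpG content of all windows. In WT 8 of the 10 points above the dashed line lie right of the dotted line, as do most of all 841 promoters bound in WT (lower quartile 2.61).

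Motif letters were counted in the 300-base RefSeq promoters on both strands. The E-box CACGTG was in 1 of 42 member promoters, that of Adamts17 (2.38%), against 7.15% of 32851 promoters. The letters TCCCGC, the core of E2F sites, were in 18 of 42 (42.9%), against 20.0%. Member promoters held a median of 15 CpGs in 300 bases, against 7 in all, and both motifs contain a CpG. All here means the RefSeq entries of 27025 gene symbols and not the 16330 array promoters. Only 39 of the 54 members had an entry. Col5a1, Col18a1, Adamts2 and Col6a2 were among the promoters with TCCCGC, so it occurred in members with high and with low levels. Another entry of Col18a1 and another of Col6a2 lacked it.

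Of 45 further genes of collagen assembly, crosslinking, breakdown and binding, 39 had a window, with a median WT level of 0.46, and 4 were bound in WT, where 5.15% of all promoters were. The highest WT levels were those of Tll1, a procollagen C-proteinase (1.26 ± 0.43 in WT, 1.35 ± 0.46 in Eed-KO and 1.82 ± 0.96 in Dnmt1-KO), Mmp9, a gelatinase (1.25 ± 0.31, 1.18 ± 0.48 and 2.26 ± 0.52), and Plod2, a lysyl hydroxylase of collagen (1.22 ± 0.53, 0.90 ± 0.29 and 2.28 ± 0.81). The lowest were those of Fmod, a proteoglycan on fibrils (-0.14, 0.19 and 0.57), Plod3, another lysyl hydroxylase (-0.09, -0.14 and 0.08), and Bgn, a small proteoglycan (-0.02, -0.05 and 0.19). In Dnmt1-KO 23 of the 39 were bound, where 46.1% of all promoters were. The median difference from WT was 0.73 against 0.61 for all promoters, and 0.10 against 0.10 with the arrays set to 1 spread. The partner genes thus had a WT median between those of all promoters and of the collagens.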

How the data were processed

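Dual-colour ChIP-chip arrays of WT, Eed-KO and Dnmt1-KO ES cells were used, 6 arrays in 2 designs, with no replicates. Per the file headers, the authors deposited background-subtracted, dye-normalised intensity values from Agilent Feature Extraction (9.5.3.1 for WT and Eed-KO, 10.1.1.1 for Dnmt1-KO, while the submitters' processing notes list 9.5.3.1). The value table the authors deposited gives log10 of IP over input, offset from each array's scanner log ratios by a constant, to within 0.001 for at least 99.0% of probes, and served as an alternative.

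Levels were log2 of red over green processed signal, centred on each array's median. Outlier-flagged probes (333 of 474380) were left out, and saturated probes kept. Among the 323 probes of the members' windows, 5 were saturated and 8 had input not well above background on some array. The share of probes with input well above background was 99.9% for WT but 88.1% and 85.8% for Dnmt1-KO, for which the software's multiplier was 13 and not 2.6. Probe positions, distances and gene symbols were read from the Dnmt1-KO files, whose annotation names no genome build. RefSeq sequences are of GRCm38.p6 and were matched by symbol and exact probe sequence.

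The bound level (2-fold) and the difference sizes (0.5 for Eed-KO, 1 for Dnmt1-KO) are rules of size. Genes are named by rule: bound members, the 3 lowest WT levels of each family, the 4 highest and 4 lowest differences per family and knockout among bound members, fixed gene pairs, and the 3 highest and 3 lowest partners. Not every gene the rule picks is named. The members and lists were chosen with earlier results of these data known. Genes named for their CpG content, their rank or all 6 probes in 1 direction were chosen after their values were seen.

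Alternatives were normexp background correction (limma 3.58.1, offset 50), the value table, 1 spread, other window and bound rules, a GC trend, probe filters and each design alone. Python 3.11.15 with pandas 2.3.3 and statsmodels 0.14.6 was used, and the window search was tested on simulated data.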

Additional observations from a re-analysis of the deposited data

How the results depend on the processing

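No paired analysis was possible because each promoter has 1 array per genotype and no test was made. Counts of bound members in WT followed the bound level: at 1.5-fold 18 collagens and 10 Adamts genes passed (3367 of 16330 promoters), at 3-fold 0 and 0 (45 of 16330), and with the mean over all probes of a gene 0 and 0. With normexp 5 collagens and 2 Adamts genes were bound (447 of 16344 promoters). With the GC trend removed 6 and 2 were bound (679 of 16265), and with that removal and 1 spread together also 6 and 2 (737 of 16272). On array 1 alone (added after seeing the data) 1 of 20 collagens and 1 of 6 Adamts genes were bound (436 of 8229 promoters), and on array 2 alone 5 of 16 and 3 of 12 (405 of 8101).

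The median Dnmt1-KO difference of the collagens and the Adamts genes was -0.033 and 0.056 with 1 spread and windows chosen again, 0.017 and 0.25 over all probes of a gene, and 0.46 and 0.52 where only WT and Eed-KO set the windows. It was -0.10 and -0.11 with those windows and 1 spread (added after seeing the data), and -0.044 and -0.018 with the GC trend removed and 1 spread. For the Adamts genes it was 1.16 with runs of 4 probes and 0.56 with the GC trend removed. For the collagens it was 0.94 on array 1 alone and 0.43 on array 2 alone, which hold different promoters. Of the 54 members, 23 kept a Dnmt1-KO difference within its probe error once the GC trend was removed, and 3 with 1 spread.

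Dnmt1-KO differences of at least 1 turned negative as follows. With 1 spread they were -0.065 (Col19a1), -0.0084 (Col4a1), -0.034 (Col15a1), -0.11 (Col6a1), -0.028 (Adamts17) and -0.35 (Adamts5). Over all probes they were -0.21 (Col19a1) and -0.054 (Col1a2). With the GC trend removed and 1 spread they were -0.064 (Col19a1), -0.13 (Col4a1), -0.055 (Col15a1), -0.034 (Col4a2), -0.12 (Col6a1), -0.13 (Adamts17), -0.022 (Adamts2), -0.31 (Adamts5) and -0.090 (Adamts8). With 1 spread and windows set by WT and Eed-KO they were -0.32 (Col19a1), -0.14 (Col4a1), -0.034 (Col15a1), -0.11 (Col6a1), -0.15 (Adamts17), -0.21 (Adamts1), -0.35 (Adamts5) and -0.10 (Adamtsl5). The cause was not tested.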
